A study of Mus musculus with 6 samples.

Results

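The Iroquois homeobox genes Irx1 to Irx6 were followed in cultured fibroblasts of the adult mouse heart and tail. The 6 genes, of 20660 gene symbols on the array, were chosen by name, as every probe whose RefSeq accession belongs to 1 of them. That gave 7 of 55681 probes. Irx2 had 2 probes and each of the other genes 1. RNA was measured on 1-colour Agilent arrays, 1 array per culture, in 3 cultures labelled heart fibroblast and 3 labelled tail fibroblast. The mice were males of strain C57/Bl6-J, 8 weeks old in the sample labels and 8 to 10 weeks in the protocol. No treatment or genetic change was given for either group. The design text describes 3 biological replicates per tissue, each a pool of 2 animals grown for 5 days after isolation. Chopped hearts and skinned tails were digested with enzymes and plated, and no sort is described. Whether heart and tail cultures came from the same animals is not given, so p-values measure the spread between these cultures.

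The arrays held up unequally. On 5 of them 47.3% to 55.2% of spots were well above background, while the array labelled heart 2 had 99.3%. Its log2 signals correlated with the other arrays at 0.742 to 0.764 across probes, against 0.957 to 0.988 for all other pairs. The array labelled tail 1 correlated best with heart 1 (0.988) and heart 3 (0.979), and less with tail 2 (0.969) and tail 3 (0.957). Results are therefore given for all 6 arrays by label and again without heart 2 and tail 1. Tail 1 was set aside because of its expression values and not for a scanner fault, which makes the p-values of that second comparison smaller than they should be, to an extent that is not known. All 11 general fibroblast markers, among them Col1a1, Dcn and Pdgfra, were well above background on every array.

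Iroquois proteins are homeodomain transcription factors of the TALE class, whose homeodomain carries a short insert of extra residues. In mammals they lie in a pair of clusters, Irx1, Irx2 and Irx4 in one and Irx3, Irx5 and Irx6 in the other. They are known for patterning the limb, the neural tube and the heart, where Irx4 marks the ventricle and where Irx3 and Irx5 act in the conduction system and in repolarisation. In a bulk culture, fewer cells expressing a gene and less RNA per cell cannot be told apart.

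Promoter sequence was at hand for 3 members, matched by symbol to RefSeq windows of build GRCm38.p6. The 250 bases before the start are shown for these 3, and no window was at hand for Irx1, Irx5 and Irx6. Irx2 and Irx3, of different clusters, were both high on the same tail arrays, while Irx4 was not. A link between these sequences and the levels was not tested. Capitals mark CG dinucleotides, and each sequence runs 5′ to 3′ on the gene's strand (Irx2 chr13:72628570-72628819, plus strand; Irx3 chr8:91801655-91801904, minus strand; Irx4 chr13:73260247-73260496, plus strand).
Irx2: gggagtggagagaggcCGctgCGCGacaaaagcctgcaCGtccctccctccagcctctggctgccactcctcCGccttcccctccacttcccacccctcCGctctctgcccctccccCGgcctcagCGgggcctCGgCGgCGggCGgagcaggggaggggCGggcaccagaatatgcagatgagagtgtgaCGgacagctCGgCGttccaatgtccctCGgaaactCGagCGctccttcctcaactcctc
Irx3: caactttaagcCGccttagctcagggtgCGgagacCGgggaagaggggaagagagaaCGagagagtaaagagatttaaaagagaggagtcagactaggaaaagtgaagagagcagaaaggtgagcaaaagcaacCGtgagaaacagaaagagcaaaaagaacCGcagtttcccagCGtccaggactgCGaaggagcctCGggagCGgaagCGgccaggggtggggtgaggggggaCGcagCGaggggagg
Irx4: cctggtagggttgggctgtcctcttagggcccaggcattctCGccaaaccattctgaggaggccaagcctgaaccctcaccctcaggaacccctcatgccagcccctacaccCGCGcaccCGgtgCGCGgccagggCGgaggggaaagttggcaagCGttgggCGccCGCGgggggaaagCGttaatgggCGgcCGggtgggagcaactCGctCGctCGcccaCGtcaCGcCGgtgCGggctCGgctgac
The windows held 19 CG dinucleotides for Irx2, 13 for Irx3 and 22 for Irx4, against a median of 6 over 32851 promoter windows of this length. Fewer CG dinucleotides were found in 80.3%, 68.5% and 85.2% of all windows, in that order. The Iroquois binding motif ACANNTGT, which reads the same on both strands, was in none of these 3 windows and in 6.3% of all windows. The TATA box letters TATAAA, searched on both strands, were also in none of the 3, against 12.4% of all windows. A missing match says only that these letters are not in this window.

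Levels are given as log2 of the processed signal minus the 75th percentile of the same array, so 0 is the 75th percentile of an array. They compare 1 probe across arrays and do not rank genes against each other. Irx1, a gene of limb, lung and body wall patterning and the first of the chromosome 13 cluster, read 4.08 on tail 2 and 3.63 on tail 3. On heart 1 and heart 3 it read -4.73 and -4.68, and on the array labelled tail 1 -5.04. Heart 2 had 1.89. Irx1 was thus high on tail 2, tail 3 and heart 2 and close to background on the other 3 arrays, where only heart 1 was well above background. Unscaled, the signal was 7686 and 6699 on those tail arrays, where heart 1 gave 27.0 and heart 3 gave 20.8.

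Irx2, the neighbour of Irx1 that shares much of its embryonic pattern, followed the same split. Its first probe read 0.03 and -0.07 on tail 2 and 3, and -6.17 on both heart 1 and heart 3. Tail 1 read -6.47 and heart 2 -1.43. The second probe read -3.28 and -3.69 on tail 2 and 3, -6.06 and -6.40 on heart 1 and 3 and -7.44 on tail 1. Its spot on heart 2 was marked as an outlier and left out. Neither probe was well above background on heart 1, heart 3 or tail 1, so both gave the same direction, with differences limited by that background.

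Irx4, the ventricular member of this cluster, did not share the pattern. It read -3.91 and -3.64 on heart 1 and 3, and -3.95, -3.83 and -4.35 on tail 1 to 3, a range in which heart and tail overlapped. The array labelled heart 2 stood alone at 1.05. Unscaled signals on the 5 other arrays lay between 26.5 and 47.9, near background, and tail 3 was not well above it. A level of Irx4 outside heart 2 was therefore barely detectable.

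In the chromosome 8 cluster, Irx3, a regulator of limb bud, neural tube and cardiac conduction, was the only member measured well above background on every array. It read 2.20 and 1.91 on tail 2 and 3, -1.59 and -1.39 on heart 1 and 3, -1.46 on tail 1 and 0.45 on heart 2. Irx3 was thus measurable on heart 1, heart 3 and tail 1 at a lower level than on tail 2 and 3. Unscaled, its signal was 239 on heart 1, 203 on heart 3 and 262 on tail 1, and 2088 on tail 2 and 2028 on tail 3. The array labelled heart 2, whose signals were high throughout, gave 3351 unscaled and fell between these sets once scaled.

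Irx5, its partner in the limb and in the ventricular wall, read -0.53 and -0.57 on tail 2 and 3. Heart 1 read -6.57, heart 3 -4.44 and tail 1 -6.60, none of them well above background, and heart 2 read -1.68. Irx6, the least studied gene of the cluster, varied less than Irx3 and Irx5. It read -2.89 and -3.42 on tail 2 and 3, -3.78 on tail 1, and -4.05, -3.55 and -4.78 on heart 1 to 3. Its lowest value (heart 3) was not well above background, and tail 2 and 3 held its highest values.

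**Figure D1:**
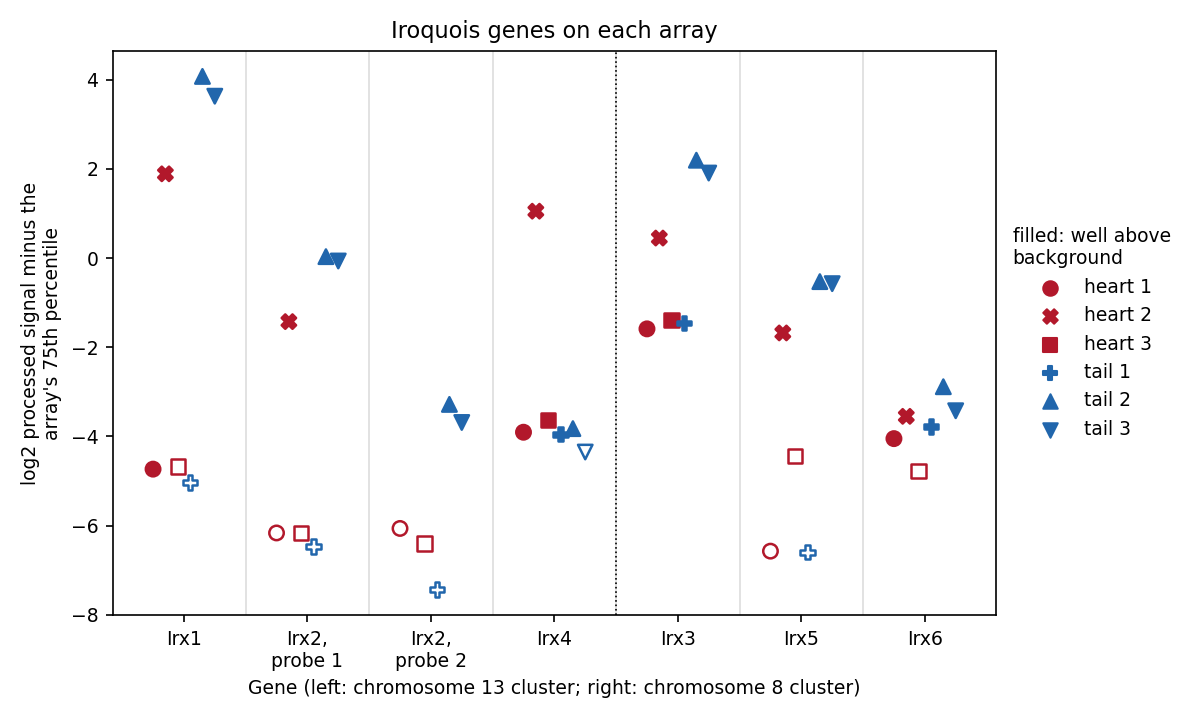
Level of each Iroquois probe on each array, as log2 processed signal minus the 75th percentile of the array; red symbols are arrays labelled heart and blue symbols arrays labelled tail, filled where the probe was well above background. Irx1, Irx2, Irx3 and Irx5 sit highest on tail 2 and tail 3, tail 1 lies beside heart 1 and 3 at these genes, and Irx4 is high on heart 2 alone.

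The comparison that the labels imply asks whether fibroblasts of the heart differ from those of the tail. With all 6 arrays, no Iroquois gene passed. The filter kept Irx3, Irx4 and Irx6, since neither label had Irx1, Irx2 or Irx5 above background on its 3 arrays together. Irx3 averaged -0.84 ± 1.12 in heart and 0.88 ± 2.03 in tail (SD, n = 3 each), a difference of -1.73 (SE 1.02, limma adjusted p = 0.725). Irx4 averaged -2.16 ± 2.79 in heart and -4.04 ± 0.27 in tail (difference 1.88, SE 1.21, limma adjusted p = 0.725). Irx6 averaged -4.13 ± 0.62 and -3.36 ± 0.45 (difference -0.76, SE 0.48, limma adjusted p = 0.725). Limma called 0 of 20202 features in this comparison (0%), while 465 (2.30%) had an unadjusted p under 0.05. The median feature differed by -0.35.

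Without a filter, Irx1 differed by label by -3.40 (95% interval -10.58 to 3.79), Irx2 by -2.42 (-7.66 to 2.82) and Irx5 by -1.67 (-6.52 to 3.19), each with a limma adjusted p of 0.736. These intervals include 0 and reach far to both sides of it, so the labelled comparison gives neither a direction nor a size for these genes. For Irx1 the spread within a label (SD 3.81 in heart and 5.14 in tail) was larger than the difference between labels. Leaving out heart 2 alone changed no call, with Irx3 at -2.37 (limma adjusted p = 0.695) and Irx4 at 0.27 (limma adjusted p = 0.706). Over the array 0 features passed then, and 583 (2.87%) had an unadjusted p under 0.05. Irx4's difference by label of 1.88 thus came down to 0.27 without heart 2. Leaving out tail 1 alone let the filter keep all 6 members, and none passed, with Irx1 at -6.36 (limma adjusted p = 0.384) and Irx3 at -2.89 (limma adjusted p = 0.253). In that setting 0 of 20489 features passed over the array.

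Without both doubted arrays, heart 1 and 3 were compared with tail 2 and 3. Of the 6 members 4 were lower in heart at an adjusted p under 0.05 (Irx1, Irx2, Irx3 and Irx5), and Irx4 and Irx6 did not pass. Over the whole array 6.55% of the 20575 features tested were lower in heart by this rule and 7.76% higher, 14.3% in all. The values of heart and tail did not overlap, with heart lower, at 5 members, Irx6 being the fifth, and at 36.4% of all features. All 6 members passed the filter, but Irx1, Irx2, Irx5 and Irx6 did so only through their tail arrays and Irx4 only through its heart arrays. The count of 4 is therefore given without a test. Irx3 alone was measured on every array of both groups, and it stands on its own value.

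Irx1 was lower in heart by 8.56 on the log2 scale (difference -8.56, SE 0.20, limma adjusted p = 0.000548), or 377-fold, with 1 of the 2 heart signals not well above background. The size moved to -6.52 under normexp background correction. The authors' deposited table of 433 probes lists Irx1 as its only Iroquois probe, with a log2 fold change of -7.71 for heart over tail, 209-fold. The arrays behind that value are not stated there. Irx2 was at least 26.2-fold higher in tail (measured difference -6.15, SE 0.14, limma adjusted p = 0.000548), and its second probe at least 2.36-fold. Irx5 was at least 18.1-fold higher in tail (difference -4.96, SE 0.72, limma adjusted p = 0.0172). Each bound sets the mean of the brighter group against the dim group's mean of the lowest signal that counted as well above background on each array, or of the dim probe's own signal where that was higher.

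Irx3 was 11.6-fold higher in tail (difference -3.54, SE 0.18, limma adjusted p = 0.00139). Irx6 differed by -1.26 (SE 0.33, limma adjusted p = 0.0823), and passed with the same difference when the slide row was fitted as a block (SE 0.25, limma adjusted p = 0.0112). With that block 5 members were called, and 3146 of 20575 features over the whole array. Irx4 differed by 0.32 (95% interval -0.32 to 0.96, adjusted p = 0.443). Irx4 was not well above background on tail 3, so its interval sets no limit on the fold. The heart levels of Irx1, Irx2 and Irx5 lay at or near background, so the order of the genes by size of difference is not resolved by the data. The heart arrays of Irx5 spread most (SD 1.51), and neither was well above background. Without tail 2, the call of Irx5 was lost (adjusted p = 0.05, not under the threshold, difference -4.94).

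**Figure D2:**
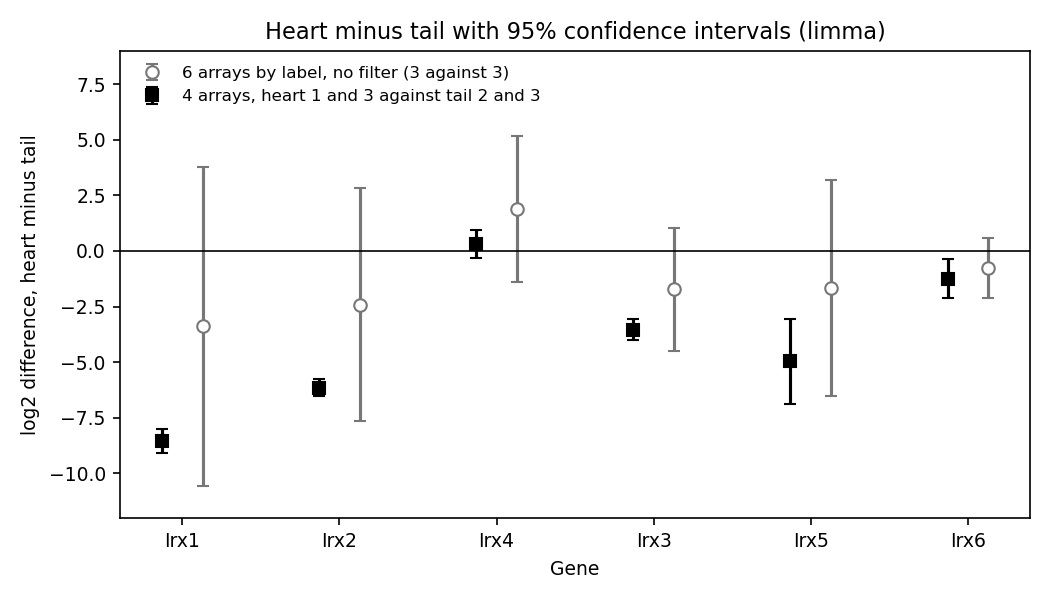
Heart minus tail difference of each Iroquois gene on the log2 scale with its 95% confidence interval from limma, for 6 arrays by label without a filter (open circles, 3 against 3) and for heart 1 and 3 against tail 2 and 3 (filled squares). By label every interval includes 0. In the 4-array comparison those of Irx1, Irx2, Irx3 and Irx5 lie well below 0, and that of Irx4 includes it. The interval of Irx6 (-2.14 to -0.38) also excludes 0, though its adjusted p did not pass. For Irx2 and Irx5 the measured difference is shown, not its bound.

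**Figure D3:**
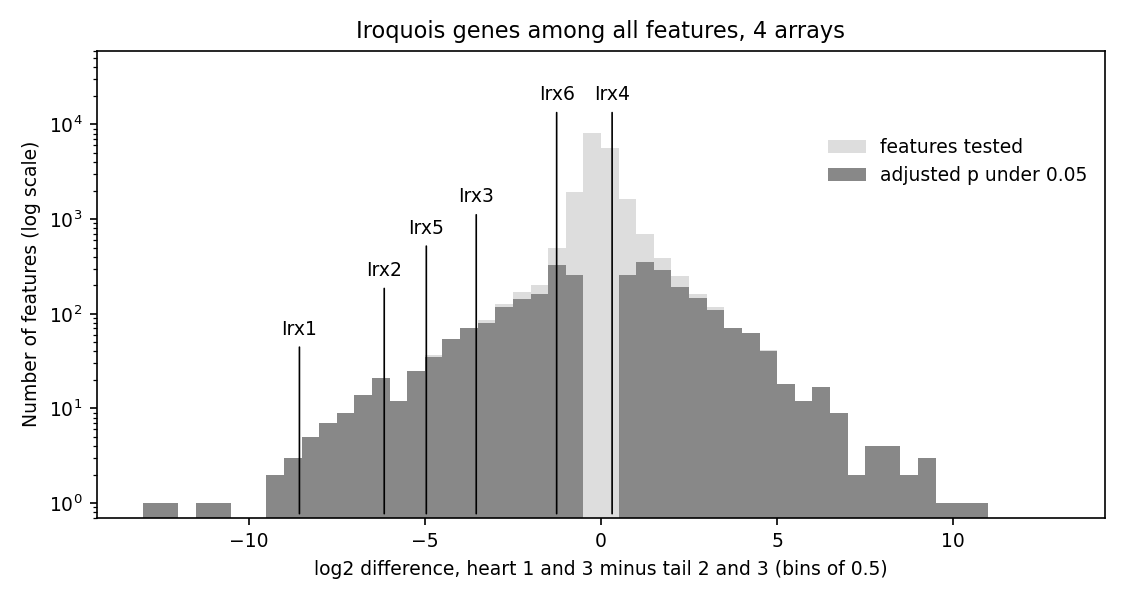
Number of features by log2 difference between heart 1 and 3 and tail 2 and 3 (bins of 0.5, log count axis), all 20575 tested in light grey and those at an adjusted p under 0.05 in dark grey, with the Iroquois genes marked by lines. Irx1 at -8.56 lies in the outermost part of the tail side and Irx4 at 0.32 in the bulk.

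The arrays that were set aside held different places at these genes. Tail 1 lay nearer to the mean of heart 1 and 3 than to that of tail 2 and 3 at 5 of the 7 probes, all but those of Irx4 and Irx6, where the means differed least. At Irx1 it lay -8.89 from the tail mean and -0.33 from the heart mean. At Irx3 the distances were -3.51 and 0.03. The same held at 2399 of the 2426 features over the whole array that were called and at least 2-fold different. For heart 2 the nearer mean was that of tail at 5 of 6 probes measured on it, with Irx4 the exception, against 1365 of 2330 called features. This place of heart 2 depended on the scale. After quantile normalization heart 2 stayed close to tail at Irx1 (-0.39 from the tail mean), but lay nearer to heart at Irx2, Irx5 and Irx6, and Irx4 kept its excess (5.44 over heart and 5.73 over tail). What gave heart 2 its high Irx4 signal was not tested.

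Within both clusters the called members adjoined each other. In the order of the GRCm38.p6 annotation, Irx1 and Irx2 were followed by Irx4 on chromosome 13, and Irx3 and Irx5 by Irx6 on chromosome 8. No other protein-coding gene lay between them. The 5 protein-coding neighbours on each side of either cluster gave 20 genes, of which 19 were on the array and 14 were tested in the 4-array comparison. Ice1 on the Irx1 side differed by -0.34 (SE 0.17, limma adjusted p = 0.263) and Ndufs6, a subunit of respiratory complex I next to Irx4, by -0.09 (SE 0.14, adjusted p = 0.705). Fto, a demethylase gene whose introns hold enhancers of Irx3, read 1.63 and 1.59 on heart 1 and 3 and 2.19 and 2.15 on tail 2 and 3, a difference of -0.56 (SE 0.14, limma adjusted p = 0.0735). Fto thus missed the threshold. Its heart and tail values did not overlap, with heart lower, which also held at 36.4% of all features. Mmp2, a gelatinase gene on the far side of Irx6, went the other way by 1.73 without passing (adjusted p = 0.0563).

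Of all features 6.55% were lower in heart and 7.76% higher in the 4-array comparison. Among the 14 tested neighbours 2 were lower in heart and 1 higher, with a median difference of -0.10, next to -0.06 over all features. With a robust intensity trend 3 were lower and 2 higher, without heart 1 or heart 3 the counts were 1 and 2, and without tail 3 they were 0 and 1. The ciliary gene Rpgrip1l, beyond Fto, was lower by 0.86 (difference -0.86, limma adjusted p = 0.0344). This call was lost without any 1 of the 4 arrays. Slc6a2, the noradrenaline transporter gene, was at least 1.81-fold higher in tail (limma adjusted p = 0.0231), a call lost without a filter or without tail 3. The carboxylesterase gene Ces1a was at least 2.74-fold higher in heart (limma adjusted p = 0.00378). The call of Ces1a was lost under normexp, and its lowest difference over the settings was 0.80.

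**Figure D4:**
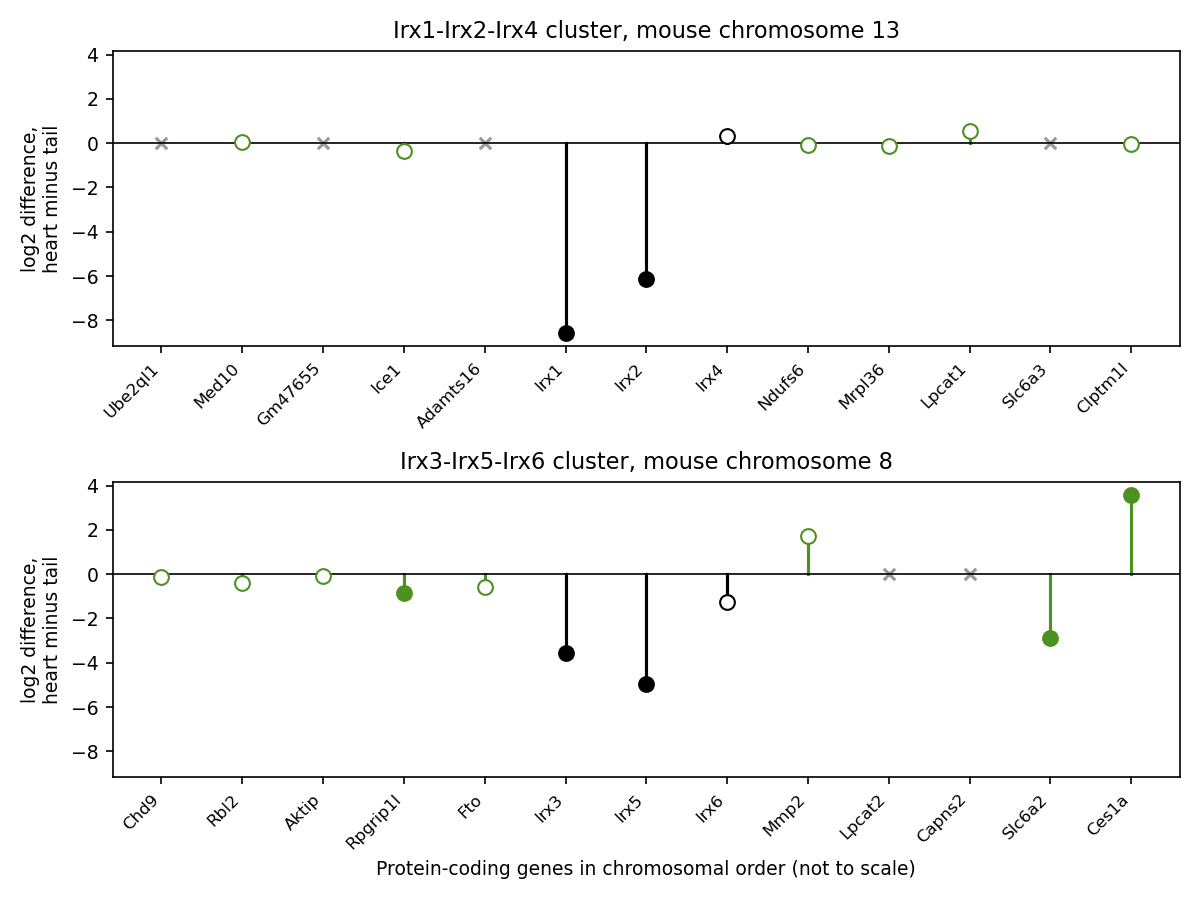
Log2 difference between heart 1 and 3 and tail 2 and 3 for the Iroquois genes (black) and 5 protein-coding neighbours on each side (green), in chromosomal order and not to scale; filled points have an adjusted p under 0.05, open points do not, and crosses were not tested. Irx1 and Irx2, and Irx3 and Irx5, lie below every flanking gene tested, while Irx4 (0.32) and Irx6 (-1.26) lie closer to 0.

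The other TALE homeobox genes went both ways. Of 11 tested among 12, 4 were higher in heart and 2 lower, with a median of -0.06. Over all features 7.76% were higher in heart and 6.55% lower. Mkx, the Iroquois-like tendon regulator Mohawk, was at least 15.9-fold higher in tail (limma adjusted p = 0.00114). It read -0.93 and -0.55 on tail 2 and 3, and -5.77, -5.43 and -4.87 on heart 1, heart 3 and tail 1. Heart 2 read -3.06, between these sets. Meis1, a Hox cofactor, was higher in heart by 1.75 (SE 0.16, adjusted p = 0.00479), Pknox2 by 1.43 (SE 0.14, adjusted p = 0.00627) and Tgif2 by 1.37 (SE 0.17, adjusted p = 0.0106). Without tail 2 or tail 3, Meis2, Pknox1, Pknox2 and Tgif2 lost their calls. Tgif2 also lost its call under normexp and with the mean of its probes, and its lowest difference over the settings was 0.58. Pknox1 also lost its call under median scaling, with the slide row as a block and without heart 3. Without a filter Mkx alone of this list kept its call.

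Of 14 genes known as partners or as downstream of Iroquois proteins 8 were tested. Of these 2 were lower in heart and 0 higher, where 6.55% of all features were lower, and the median was -0.45, next to -0.06 over all features. Gja1, the connexin 43 gene that Irx3 acts on in the heart, read -1.39 and -2.36 on heart 1 and 3 and -0.09 and -0.01 on tail 2 and 3 (difference -1.83, SE 0.35, limma adjusted p = 0.0371). Vdr, the vitamin D receptor gene, differed by -1.07 (SE 0.16, adjusted p = 0.0202). Both calls were lost without tail 2 or tail 3, and that of Gja1 under quantile normalization. The cardiac genes Gja5, Kcnd2 and Bmp10, the limb signal Shh and the fat genes Ppargc1a and Ucp1 were not tested, since neither group had them above background on both of its arrays. By label, 0 genes of any list passed.

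Markers of other cells were compared on the same 4 arrays, and their lists did not share a direction. Over all features 6.55% were lower in heart at an adjusted p under 0.05 and 7.76% higher. Smooth muscle markers were lower in heart at 3 of 4 genes, and their summed linear level, relative to the 75th percentile, was 499 to 534 on heart 1 and 3 and 1009 to 1229 on tail 2 and 3. A sum on this scale rests mostly on the brightest genes of its list. Of the skeletal muscle markers 2 of 3 tested were lower in heart (Myh3 and Myog), with sums of 0.161 to 0.182 against 0.572 to 1.41. Myod1, Myog, Myh3 and Pax7 were not well above background on heart 1 and 3, nor was Pax7 on tail 2 and 3. Schwann cell markers summed to 0.539 to 0.587 in heart and 2.07 to 2.57 in tail, where S100b alone of 2 tested passed. Adipocyte markers were lower in heart at 2 of 4 genes, with sums of 9.70 to 11.7 against 12.4 to 16.2. That count was 0 without tail 2 and 1 without heart 1, heart 3 or tail 3. The cartilage markers Col2a1 and Col10a1 were lower and Sox9 was higher in heart, with sums of 8.02 to 8.87 against 5.05 to 5.39. Sox9 (3.08 and 2.93 on heart 1 and 3) made up most of the heart sums. Of 3 keratinocyte markers tested Dsp was lower, and the sums overlapped (5.64 to 5.99 and 5.13 to 5.80).

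Endothelial and leukocyte markers were higher in heart at 3 of 5 and 3 of 4 tested genes, where 7.76% of all features were higher. The sums overlapped for both lists (12.6 to 17.1 against 15.8 to 21.3, and 28.7 to 58.4 against 19.6 to 31.2). These sums rested mostly on Kdr and Csf1r, which were not called (differences -0.43 and 0.19, limma adjusted p = 0.333 and 0.788). In the mesothelial list Msln and Wt1 were higher in heart and Krt19 lower. The sum was 0.534 to 0.735 in heart and 2.44 to 2.51 in tail, where Krt19 (1.22 and 1.30 on tail 2 and 3) was the brightest gene. Of 4 cardiomyocyte markers tested, Tnnt2 was higher and Myl2 lower in heart, with sums of 2.32 to 3.82 against 0.463 to 0.740. Tnnt2 (1.84 and 0.97 on heart 1 and 3) made up most of the heart sums. Nppa and Tnni3 were not called (differences -0.08 and -0.64), and the median difference of the tested markers was -0.36. The call of Myl2 was lost without heart 1, tail 2 or tail 3. In the fibroblast list 5 of 11 genes were higher in heart and 1, Thy1, was lower, with sums of 2412 to 3088 against 2240 to 2475. Without tail 2 or tail 3, 2 were higher. The part of such cells in the Iroquois differences was not tested.

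The genes most like each member over the 6 arrays were found by the root mean square difference of values centred on each gene's mean, among 13323 other genes tested. For Irx1 they were the R-spondin gene Rspo2 (0.23), the tendon gene Tnmd (0.37) and Car3 (0.39). For Irx2 they were Klk8 (0.16), Hoxb6 (0.19), a Hox gene of the trunk, and Atp12a (0.22). Irx3 was matched by Pitpnc1 (0.14), Sh3gl3 (0.15) and Arhgap20 (0.18), and Irx5 less closely by Kcnf1 (0.37), Hmga2 (0.42) and Cyp2c23 (0.43). Irx4 was nearest to Uvssa (0.15), Il1rn (0.20) and Gm4850 (0.22), whose values were likewise high on heart 2 alone. Irx6 was nearest to Tnfrsf19 (0.18), Tceal5 (0.19) and Fam185a (0.24). Among the members, Irx2 lay closest to Irx5 (0.80) and then to Irx1 (1.14), and Irx1 and Irx4 lay farthest apart (4.05). These values describe 6 arrays that share a slide and carry no test.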

How the data were processed

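The deposited array files hold spot intensities with background already subtracted, and quality flags, from Agilent's Feature Extraction (version 11.0.1.1), per the file headers. The authors' deposited table lists 433 probes by log2 and linear fold, heart over tail; how it was normalized is not given. Groups came from the sample titles.

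Members and gene lists were chosen with earlier results of these data known. Processed signals were set to log2 and each array's 75th percentile was subtracted. Outlier spots were left out, the spots of a probe were averaged, and RefSeq accessions named 27235 probes through the GRCm38.p6 gene table. The filter kept probes that every array of 1 group or of both had well above background. A gene was read from its brightest probe. Heart and tail were set against each other by limma 3.58.1 in R 4.3.3 (lmFit, eBayes, two-sided, p adjusted after Benjamini-Hochberg over all features), checked on simulated data. Python 3.11.15, pandas 2.3.3 and matplotlib 3.10.9 were also used. The number of arrays limits the precision. All arrays lay on 1 slide, in 2 rows. Named genes were all members, the 3 nearest patterns of each member, and called members of the fixed lists, at most 4 per list by size; Ice1, Ndufs6, Fto, Mmp2 and the untested and additional list genes were named after their values were seen. Alternatives were quantile, median and normexp processing (normexp on median spot signals, offset 50, as mean spot signals were not used here), other filters and probe rules, a trended prior, blocks, and leaving out each array.

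Whether replicate numbers pair the cultures is not known. Deviations of same-numbered arrays from their label means correlated at 0.195, 0.260 and -0.329. Those means include heart 2 and tail 1, which stood apart from the other arrays of their label, so these values cannot decide it.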

Additional observations from a re-analysis of the deposited data

How the results depend on the processing

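In the 4-array comparison Irx1, Irx2 and Irx3 kept direction and call under each alternative that tested them (11, 11 and 12 settings), between -8.78 and -6.52, -6.20 and -3.16, and -3.69 and -3.12. The weakest value of each came from normexp on median spot signals; the cause was not tested. Irx5 was called in 9 of 11 settings (-6.02 to -2.63), not without a filter (limma adjusted p = 0.108) or without tail 2 (0.05). Irx6 passed once the slide row was blocked (adjusted p = 0.0112) and in none of the 10 others. Irx4 turned sign under normexp (-0.042, adjusted p = 0.905). The count of called members was 1 when a signal was required on all 4 arrays, since Irx3 alone could then be tested. That setting called 2156 of 18557 features over the whole array. Called features over the whole array numbered 2943, 706 without a filter and 1495 to 4065 with 1 array left out.

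By label no alternative called a member. Called features numbered 0 to 239 with each array left out in turn, the highest without heart 1. Blocking on the replicate number called 121 (104 higher in heart, 17 lower), and the count of Iroquois genes stayed at 0. Whether these numbers pair the cultures is not known. That block could not be fitted on 4 arrays, where it leaves no residual degree of freedom. Median scaling moved the median of all features from -0.35 to -1.31. With 2 arrays per group and several members at background in heart, fold sizes of Irx1, Irx2 and Irx5 are limited by the signal over background.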
